A study of Homo sapiens with 8 samples.

Results

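The clustered protocadherin genes, on the plus strand of human chromosome 5, carried weak RBM45 CLIP peaks, listed in only 1 of the 2 wild-type CLIP replicates. Of the 210878 peak entries of WT CLIP replicate 1, 14 lay in the PCDHA, PCDHB and PCDHG clusters. Of the 65587 entries of replicate 2 there were 0, and of the 13758 shared peak pairs there were also 0. Members were all entries that shared at least 1 base, on the plus strand in hg19, with 140165875 to 140391929 (PCDHA), 140430978 to 140627802 (PCDHB) or 140710251 to 140892546 (PCDHG) of chromosome 5. An entry is 1 peak on 1 strand, however many rows of the list repeat it, and positions count the first base of a chromosome as 1.

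All groups used HEK293T, a widely used transformed cell line derived from human embryonic kidney, transduced with a lentivirus for FLAG-HA-tagged human RBM45. Before collection the cells received 300 mJ/cm2 of UV light (254 nm), which cross-links protein to RNA. The 8 libraries form 4 groups of 2 replicates: wild-type (WT) cells and METTL3 knockout cells, each with CLIP libraries pulled down with an antibody to the HA tag and with size-matched input made without antibody. CLIP (cross-linking and immunoprecipitation) recovers the RNA fragments bound to a protein. The results rest on the WT CLIP peak lists. Input and METTL3 knockout libraries were not analysed here. The antibody recovers the tagged protein supplied by the virus, not native RBM45. Whether the replicates were separate cultures is not given in the labels, and with 1 list per library no difference between clusters or lists was tested.

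Clustered protocadherins are cell-surface adhesion proteins of the cadherin family, best known from neurons, where each cell uses its own mixture of them to tell its own branches from those of other cells. In the PCDHA and PCDHG clusters each gene has a variable first exon with its own promoter, which encodes the extracellular and membrane-spanning parts and is spliced to a set of constant exons at the far end of the cluster. Transcripts that start at an early first exon therefore run through all later first exons as intron. PCDHB genes have no constant exons and lie one after the other. RBM45 is an RNA-binding protein with RNA recognition motifs, and METTL3 is the catalytic subunit of the enzyme that writes most m6A on messenger RNA. In RefSeq (GRCh38) the PCDHA cluster holds 15 protein-coding genes, PCDHA1 to PCDHAC2, and all 15 end at the same base. The PCDHG cluster holds 22, PCDHGA1 to PCDHGC5, which also share 1 end. The PCDHB cluster holds 16, with no base in more than 1 of them. These counts are from another build than the peaks, so no peak was assigned to a gene, exon or intron, and variable first exons could not be compared with shared introns. Sequences under the peaks were not used here.

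PCDHA, the first cluster along the strand, held 6 entries over 226 kb (2.65 per 100 kb). PCDHB held 2 over 197 kb (1.02 per 100 kb) and PCDHG held 6 over 182 kb (3.29 per 100 kb). PCDHA and PCDHG thus each held 42.9% of the 14 entries (95% exact Clopper-Pearson interval 17.7 to 71.1) and PCDHB 14.3% (1.78 to 42.8). These intervals cover counting error only, and those of the 3 clusters overlap. The clusters together had 2.31 entries per 100 kb, close to the 2.34 per 100 kb of the whole plus strand of chromosome 5 in the same list, between its first and last entry. The minus strand held 0 entries in the 3 clusters in either replicate, so every entry in them lay on the strand of the genes. The labels and headers do not say how a peak was given its strand.

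The strongest of the 14 entries was the first in PCDHA, at 140233201 to 140233232, 67.3 kb into the cluster and 32 bases wide. The authors' list gives it a fold enrichment of 4.68 over background, with an unadjusted −log10 p of 6.26. The other 5 PCDHA entries were all 30 bases wide, with a fold of 2.34 and a −log10 p of 2.52. Of these, 3 lay in the middle of the cluster, at 140257638 to 140257667, 140261217 to 140261246 and 140270176 to 140270205. After an empty stretch of 89129 bases the last 2 followed at 140359335 to 140359364 and 140377830 to 140377859, the latter 93.8% of the way along the cluster. PCDHA entries were therefore spread over 145 kb, and none lay in the first 67.3 kb.

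PCDHB, the cluster of genes without constant exons, had an entry at 140480001 to 140480030 and another at 140570315 to 140570344. Both had a fold of 2.34, a −log10 p of 2.52 and a width of 30 bases, and 90284 bases lay between them.

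PCDHG, the last cluster, held its 6 entries within 52.1 kb in the middle of the cluster. In order along the strand, the fold was 2.34 at 140764976 to 140765005, 3.12 at 140781138 to 140781167 and 3.90 at 140792551 to 140792580, whose −log10 p was 4.93. It was 3.12 at 140795875 to 140795904 and at 140803703 to 140803732, with a −log10 p of 3.68, and 2.34 at 140817066 to 140817095. All 6 were 30 bases wide. PCDHG thus had 4 of 6 entries above the lowest fold, against 1 of 6 in PCDHA and 0 of 2 in PCDHB. Among all replicate 1 entries at the same background, the lowest in the list, 42.1% had this fold of 2.34 and the rest a higher one. The counts per cluster are small, and a difference between clusters was not tested. The last 75.5 kb of the PCDHG cluster, its far end along the strand, held no entry.

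**Figure D1:**
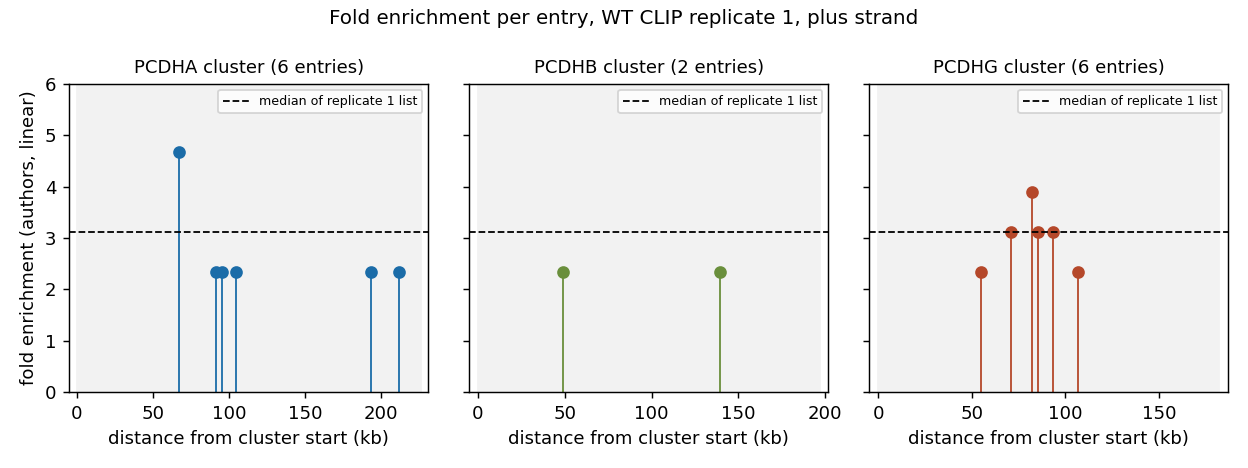
Fold enrichment over background (vertical axis, linear, the authors' value) of each WT CLIP replicate 1 plus-strand entry against its distance in kb from the cluster start, with the cluster shaded and the list's median of 3.12 as a dashed line. Points at 2.34 fill most of PCDHA and all of PCDHB, and the values above the line are the 4.68 in PCDHA and the 3.90 in PCDHG.

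Compared with the whole replicate 1 list, these entries were weak, and their median width of 30 bases was the same as the list's. A width of exactly 30 bases was found in 13 of 14, against a background of 51.6% of all entries. That background covers entries of every strength, and the widths of equally weak entries were not compared. The median fold was 2.34 in the clusters and 3.12 in the whole list (interquartile range 2.76 to 3.94). The lowest fold of the members, 2.34, was shared by 9 of 14, and 14.5% of the whole list had this value together with the lowest background. Only 4.17% of the list had a smaller −log10 p than these 9. The PCDHA entry of 4.68-fold had a larger −log10 p than 82.7% of the list, and the PCDHG entry of 3.90-fold a larger one than 67.2%.

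The fold and −log10 p of every member took only 4 pairs of values, which are those of whole peak heights. With fold computed as height plus 1 over background plus 1, and p as the Poisson probability of more than that height, a whole height and a background could be solved for 99.99% of replicate 1 entries. For the members the heights were 2 overlapping fragments in 9 entries, 3 in 3 entries (all PCDHG), 4 in 1 entry (PCDHG) and 5 in 1 entry (PCDHA). Heights of 2 were the lowest in the list, whose median was 5. The background was 0.282 fragments for all 14, the lowest value in the list, which 34.4% of all replicate 1 entries shared. Among those entries at the lowest background, 42.1% had a height of 2 and 40.8% a height of 3, against 64.3% and 21.4% of the members. So each peak named above had an implied height of 2 to 5 overlapping fragments.

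**Figure D2:**
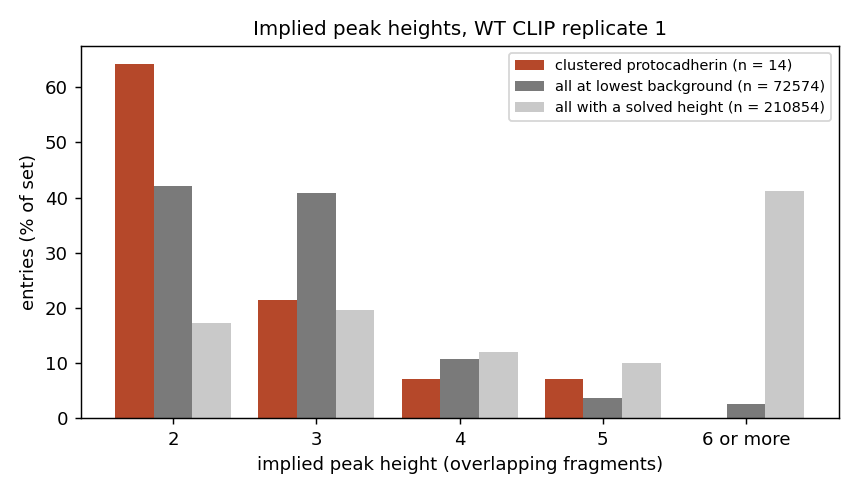
Percent of entries (vertical axis) at each implied peak height in overlapping fragments (horizontal axis) for the 14 clustered protocadherin entries, for the 72574 replicate 1 entries at the lowest background and for the 210854 with a solved height. The protocadherin bars stand at 2 to 5 fragments with 64.3% at 2, while 41.3% of the whole list had a height of 6 or more.

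No protocadherin position was shared by the replicates. Of the 14 entries, 0 overlapped a replicate 2 entry, which allows a share of up to 21.4% (3 counts of the total, for counting error only), against a background of 8.88% of all replicate 1 entries. Entries this weak seldom overlapped anywhere. Among all entries at the lowest background, 1.01% of those with a height of 2 overlapped replicate 2 (95% exact interval 0.905 to 1.13), 2.11% with a height of 3 (1.95 to 2.28), 4.75% with a height of 4 (4.29 to 5.25) and 9.12% with a height of 5 (8.04 to 10.3). At these shares 0.293 of the 14 entries would overlap, so 0 of 14 is near the level of such weak entries elsewhere. In the replicate 2 list, fold and −log10 p were solved for 99.98% of entries with heights scaled by 0.746, and the lowest solved height was 3 fragments. The p threshold in the peak names is 0.005. Under these formulas a height of 2 misses it at that scale, even at the lowest replicate 2 background of 0.241 fragments. A height of 2, as in 9 of the 14 members, could therefore not be listed there.

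On the plus strand, the replicate 2 entries on either side of the clusters ended at 140085448 and began again at 140938276, an empty stretch of 853 kb. In replicate 1 the nearest outside entries were at 140085807 to 140085878, inside that stretch, and from 140939230, beyond it. Between them, replicate 1 held only the 14 entries in the clusters. The replicate 2 stretch was the 58th longest of 1357 such stretches on that strand, whose median was 4.79 kb. At the replicate 2 density of chromosome 5, 0.753 entries per 100 kb of plus strand, the 605 kb of the 3 clusters would hold 4.56 entries. The share of the replicate 1 list that lay in the clusters was 0.00664% (exact interval 0.00363 to 0.0111), and at that share replicate 2 would hold 4.35 entries. That share comes from a longer list that includes heights of 2, while the lowest height solved in replicate 2 was 3. A replicate 1 list cut to its strongest 65587 entries kept only 1 of the 14. The exact upper limit for the 0 of 65587 entries in replicate 2 was 0.00562%. Whether the share differed between the lists was not tested, and neighbouring entries of 1 library are not independent.

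The surroundings held entries on both strands. In the 100 kb before PCDHA replicate 1 had 2 plus-strand entries and replicate 2 had 1. On the minus strand there, replicate 2 had 1 entry, with a fold of 5.12 and 7 rows, and replicate 1 had 0. The gap between PCDHA and PCDHB held 1 replicate 1 entry, on the minus strand at 140427811 to 140427840, with a fold of 2.34. The gap between PCDHB and PCDHG held 0 in both lists. In the 100 kb after PCDHG the plus strand held 1 entry in each list, without overlap. The minus strand there held 23 replicate 1 and 9 replicate 2 entries, of which 3 in each list overlapped the other. The median fold of those 23 was 3.50, and 0 of them were at the lowest background. Peaks shared by both replicates were thus found within 100 kb of the PCDHG cluster, on the opposite strand. Over the whole lists, 8.88% of replicate 1 and 28.8% of replicate 2 entries overlapped the other list. Whether the 3 of 23 and 3 of 9 here differed from those shares was not tested.

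The PCDHA and PCDHG entries were repeated in many rows of the list, and the PCDHB entries were not. Along PCDHA the 6 entries were listed in 12, 15, 15, 16, 18 and 18 rows, in order of position. Along PCDHG the 6 entries were listed in 11, 13, 15, 16, 19 and 20 rows. In both clusters the number never fell along the strand. Both PCDHB entries were listed once. The median was 15.5 rows in PCDHA, 15.5 in PCDHG and 1 in PCDHB, against 2 in the whole list, where 48.4% of entries stood in a single row. A cut-off of at least 11 rows was taken as the lowest number in PCDHA or PCDHG. It was met by 12 of 14 members, a count fixed by that choice, and by 0.772% of all entries. On the plus strand of chromosome 5 there were 30 such entries, 12 of them in these 2 clusters, a number fixed by the same choice.

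**Figure D3:**
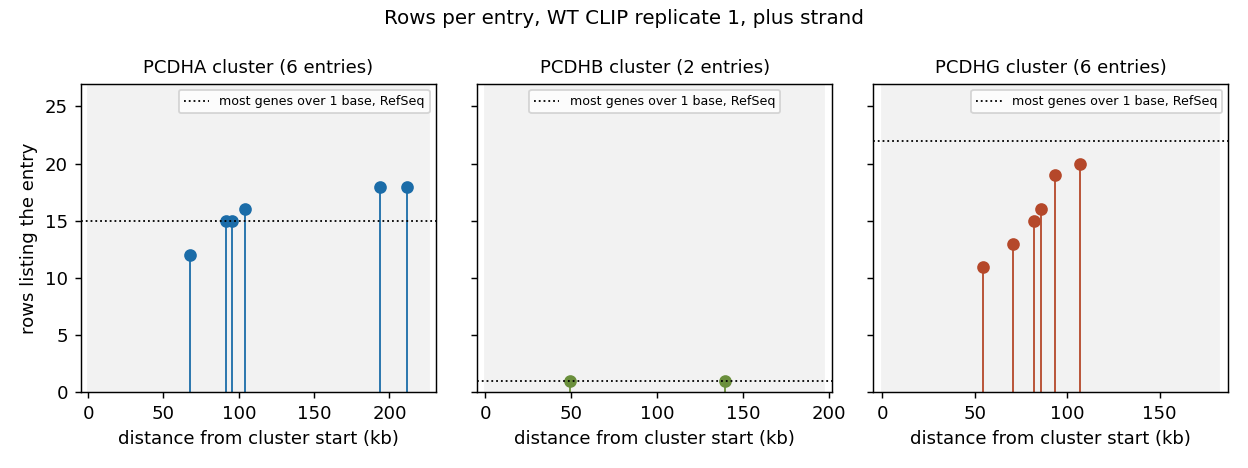
Number of rows that list each WT CLIP replicate 1 plus-strand entry (vertical axis) against its distance in kb from the cluster start, with the cluster shaded and the largest number of RefSeq (GRCh38) protein-coding genes over 1 base as a dotted line (15, 1 and 22). Rows climb from 12 to 18 along PCDHA, rising above its dotted line, and from 11 to 20 along PCDHG, below its line. They stay at 1 in PCDHB.

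The row numbers are given here beside the number of nested genes. PCDHA, with 15 nested genes, had 16 and then 18 rows at its later entries, more rows than nested genes. PCDHG, with 22, reached 20 rows at its last entry, 58.6% of the way along. PCDHB, with no overlapping genes, stayed at 1. In the PCDHA cluster the last 2 entries, 193 and 212 kb from the start, had the same number. No count of genes over any single peak was made, and whether a row stands for an annotated transcript was not tested. Among the pairs of the deposited overlap list, which include none of the 14, the number was nearly always equal. In 13757 of 13758 such pairs both lists gave the same number of rows, and in 121 of 121 pairs with at least 11 rows. These pairs are fewer than the 18721 replicate 1 entries that overlapped replicate 2 by at least 1 base, and the others were not compared. Entries of equal strength differed in it: the 20-row entry of PCDHG and the single-row entries of PCDHB all had a fold of 2.34. Counted as rows, the clusters made up 190 of the 467329 rows of replicate 1, or 0.0407%, against 0.00664% of its entries.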

How the data were processed

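Peak lists of 2 WT CLIP libraries (HEK293T) and a list of their overlapping pairs were used. The submitters' processing notes name hg19 and, with no roles, deepTools 3.2.1, HOMER 4.11.1, MACS2 2.1.1.20160309, Novoalign 3.09.00 and bedtools 2.25.0. The deposited lists give for each peak a fold over background (a ratio), the unadjusted −log10 p and a score of 10 times that, cut to a whole number. Peak names carry a p threshold of 0.005. The 8 count columns of a deposited table match no sample label and were not used, so library depth is unknown.

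Rows were collapsed to entries, and overlap meant at least 1 base on the same strand. Shares carry exact Clopper-Pearson intervals, and a 0 among the 14 members carries a limit of 3 counts. Heights were solved from fold and −log10 p within 0.002 of the latter, by a method chosen after seeing the data. On simulated data it recovered 100% of 2918 unscaled heights and 100% of 2799 heights scaled by 0.74. The simulated data were made with the same formulas, so they do not check them. The formulas are those MACS2 commonly uses, and no header states them. The rule named the strongest and most repeated peaks of each cluster, and all 14 are given. Members and lists were chosen with earlier results of these data known. Python 3.11.15 was used with scipy 1.17.1, pandas 2.3.3, matplotlib 3.10.9 and numpy 2.4.6. Alternatives changed the threshold, list length, overlap rule, membership and strand.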

Additional observations from a re-analysis of the deposited data

How the results depend on the processing

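Of 31 recomputed values 8 moved and 0 reversed. Membership by peak midpoint and ignoring strand left 14 entries, and the 2 stricter overlap rules left 0 overlaps with replicate 2. The count depends on weak peaks: the stronger 50% of each list kept 2 of the 14 entries. A replicate 1 list shortened to its strongest 65587 entries, as many as in replicate 2, kept 1. In the stronger 50%, PCDHB held 0% of the entries, and the median rows in PCDHA became 12, from its 1 entry left. In the shortened list PCDHA held 100% and PCDHB and PCDHG 0% each. Leaving out each replicate gave 0 to 14 entries, since replicate 2 alone has 0 and leaves no shares or rows to compute. In PCDHA, PCDHB and PCDHG the shares without replicate 2 were 42.9%, 14.3% and 42.9%, and the median rows 15.5, 1 and 15.5. The planned comparison of first exons with introns was not run. No paired analysis was possible because the results come from no test. Implied heights of 2 to 5 fragments limit every value.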
